A study of Mus musculus with 15 samples.

Results

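Reads with 1 or 2 uridines added to the 3′ end of a mouse miRNA were measured across 15 small RNA libraries. A read was taken as a member when its insert had 19 to 26 bases, its first 18 bases matched a named mouse miRNA hairpin exactly, and it went on matching that hairpin up to 1 or 2 final T bases that the hairpin does not hold. Sequencing shows uridine as T, so an added T stands for an added U. In all, 1415 distinct inserts with 358439 reads met the rule in the 159 miRNA arms that had 500 or more reads over the 15 libraries, out of 627951 distinct inserts and 6892924 reads in the series. An arm is the 5p or 3p strand of a hairpin. The measure throughout is the tailed share, the percent of an arm's reads that carry the added T, among 4305549 reads of these arms.

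The series asked which miRNAs that may act on the progesterone receptor are found in Her2-expressing mammary lines and in what those cells secrete. It has 3 libraries in each of 5 groups: MM3MG, a mammary epithelial line of BALB/c origin described as normal; MM3MG-Her2, the same line after transduction with pLSXN-Neu retroviral particles; TUBO cells, a breast cancer line from primary tumours of Balb-NeuT mice; exosomes extracted from the medium of TUBO cultures; and the supernatant that exosome isolation left behind. All cultures were untreated and grown in DMEM with 10% FCS, which brings bovine small RNA into the medium. Neither the number of clones behind MM3MG-Her2 nor whether replicates were separate cultures is given in the sources used here, so p-values measure the spread between these libraries, which may be technical.

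Addition of uridine is carried out by terminal uridylyl transferases, mainly TUT4 (Zcchc11) and TUT7 (Zcchc6), on precursor hairpins and on mature miRNAs. On a let-7 precursor a single added uridine restores the overhang that Dicer recognises, whereas a long tail, added when Lin28 is bound, marks the precursor for decay. Because the 3p strand carries the 3′ end of the precursor, a uridine added to the precursor stays on the 3p strand after Dicer cleavage, while a uridine on a 5p strand has to be added after cleavage. Uridylated miRNAs have been described as relatively frequent in secreted vesicles, and adenylated forms as more frequent in cells.

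The sequences below show what a tailed read looks like and why arms cannot be compared without their flanking bases. In the first set, the most frequent tailed read of 6 arms is printed as DNA with the added T in capitals. They were chosen for their high shares or for the group differences given further on.
let-7b-3p: ctatacaacctactgccttccT
miR-210-3p: ctgtgcgtgtgacagcggctgT
miR-101a-3p: tacagtactgtgataactgaaT
miR-24-3p: tggctcagttcagcaggaacagT
miR-204-5p: ttccctttgtcatcctatgcctgT
miR-200c-3p: taatactgccgggtaatgatggaT

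Mature sequences that share a seed (bases 2 to 8, in capitals, RefSeq, GRCm38.p6) show how alike the members of a family with unlike tailed shares can be. Of the 159 arms, 143 matched a RefSeq mature entry, and 67 of these shared a seed with another arm, in 23 seed groups. The first 3 lines are the miR-148 seed family and the next 3 the miR-25 seed family.
miR-148a-3p: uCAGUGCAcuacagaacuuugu
miR-148b-3p: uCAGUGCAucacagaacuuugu
miR-152-3p: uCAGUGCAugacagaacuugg
miR-92a-3p: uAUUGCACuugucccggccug
miR-92b-3p: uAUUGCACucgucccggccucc
miR-25-3p: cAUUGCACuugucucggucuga

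The last set gives the most frequent untailed end of 4 let-7 arms, which share the seed GAGGUAG, followed in capitals by the next 4 hairpin bases. Where the hairpin goes on with T, an added uridine reads the same as the gene, and the rule cannot count it.
let-7a-5p: tgaggtagtaggttgtatagttTTAG
let-7b-5p: tgaggtagtaggttgtgtggttTCAG
let-7e-5p: tgaggtaggaggttgtatagttGAGG
let-7i-5p: tgaggtagtagtttgtgctgttGGTC

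Libraries held 196152 to 710902 reads, lowest in TUBO supernatant, and 27.4 to 78.3% of them were assigned to miRNA hairpins. The labelled cell types were checked against marker miRNAs. A list of 7 epithelial markers (the miR-200 family, miR-203-3p and miR-205-5p) summed to 25360 to 26640 CPM (reads per 1e6 reads assigned to miRNAs) in TUBO cells but to 26 to 45.1 CPM in MM3MG. In MM3MG-Her2 the sum was 11.6 to 40.1 CPM, with miR-203-3p and miR-205-5p at 0. These markers thus did not bear out the epithelial description of the MM3MG lines. The 6 stromal markers, which include miR-143-3p and miR-199a-5p, summed to 185600 to 201300 CPM in MM3MG, 104000 to 108000 CPM in MM3MG-Her2 and 47280 to 47410 CPM in TUBO cells, where miR-143-3p made up 47050 CPM and miR-199a-5p stood at 2.51, miR-145a-5p at 167 and miR-214-3p at 0 CPM. The 6 markers of blood cells and serum summed to 975 to 1153 CPM in MM3MG, 123 to 157 CPM in TUBO cells, 10160 to 24330 CPM in exosomes and 3114 to 7156 CPM in supernatant. Most of this was the joint arm miR-3107-5p/miR-486-5p, with a mean of 14100 CPM in exosomes and 4433 CPM in supernatant. miR-451a stood at 974 CPM in exosomes and 8.95 CPM in supernatant, where miR-142a-3p, miR-144-3p and miR-223-3p were at 0. Replicates were compared over the arms' read counts: every pair differed beyond counting noise (chi-square per degree of freedom of 5.6 to 151), most of all exosome replicate 3 against the other 2 exosome libraries (144 and 151).

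Over pooled reads, uridine was the base most often added in every group. Pooled over the arms, 11.2% ± 0.856 of the reads of MM3MG libraries were U-tailed (SD, n = 3). The value for MM3MG-Her2 was 6.75% ± 0.315, for the TUBO line 7.18% ± 0.0285, for its exosomes 8.23% ± 0.112 and for the supernatant 6.32% ± 0.550. Reads with 1 or 2 added A, counted by the same rule, made up 1.51 to 5.56%, and those with added C or G 0.132 to 2.41%. The C and G values give the level of final mismatches of other kinds, measured the same way. A single arm, miR-143-3p, a smooth muscle and stromal miRNA, gave 40.8% of all U-tailed reads. Without it the pooled shares were 5.96, 3.31, 5.05, 6.14 and 5.23% in the same order, and MM3MG was no longer the highest group. In MM3MG-Her2 this value was below the A-tailed share without miR-143-3p (5.88%), and in the other 4 groups it was above it. The median over 44 arms with depth in every library was higher for A than for U in MM3MG-Her2 (4.18% ± 0.09 against 3.37% ± 0.12). In MM3MG the medians were close (4.24% ± 0.52 for A and 4.06% ± 0.29 for U). In TUBO cells, exosomes and supernatant the median was higher for U.

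Most tails were 1 base long: 93.2% of the tailed reads had a single T and 6.77% had TT (3.32% without miR-143-3p). A further 5441 reads ended in TT with only the second T matching the hairpin by position; they fall outside the rule and would add 1.52%. Of 107 arms with 50 or more tailed reads, 62 carried at least 50% of their counted tails on the templated end that was also the most frequent untailed end, and 20 carried at least 50% on an end 1 base shorter. This split partly follows from the rule. In 46 of the 159 arms a hairpin goes on with T after the most frequent untailed end, and a tail there cannot be counted. A read with a T in place of its last base and a read trimmed by 1 base and then uridylated are the same sequence, and the data cannot tell them apart. In 104 of the 107 arms, reads in which that T was followed by further hairpin bases came to less than 5% of the tailed reads and such reads together. The exception with most such reads was miR-6240-3p (202 against 149 tailed reads), a locus whose status as a miRNA is doubtful. In some arms hardly any exactly matching read goes past that position either. There were 0 in miR-101a-3p and 12 in miR-143-3p, beside 16263 and 126488 reads with the added T. For such arms the count is low whatever the T is, and it cannot tell an added T from a changed base.

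The tailed share ranged from 0 to 75.3% over the arms. The median arm had a tailed share of 4.85% over all libraries, 38 arms lay under 1% and 50 over 10%. The 74 arms from 3p strands had a median of 10.4%, against 2.60% for the 82 arms from 5p strands. The next hairpin base limits what can be counted: where it was T the median was 0.814% (46 arms), against 8.0% for A, 7.20% for C and 4.81% for G. Among the arms whose next base was not T, the 3p median was 10.8% (59 arms) and the 5p median 3.99% (51 arms). These are descriptions of arms with no test, since arms share libraries and precursors.

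The highest share was that of let-7b-3p, the passenger strand of let-7b (hairpin positions are given on GRCm38; Mirlet7b, chromosome 15, 85707319 to 85707403, plus strand, within an exon of the long non-coding RNA Lncppara), at 75.3% of 595 reads. It was followed by miR-652-3p (66.1% of 955), miR-132-3p (60.5% of 1862), a CREB-induced miRNA, and miR-143-3p (54.4% of 269116). Next came miR-23b-3p (52.7%), the joint arm let-7c-2-3p/let-7a-1-3p (44.1%), the hypoxia-induced miR-210-3p (41.6% of 22984) and miR-101a-3p (40.4% of 43675). All 8 are 3p strands. For miR-210-3p (Mir210, chromosome 7, 141221384 to 141221493, minus strand, in no other annotated gene), 95.9% of the counted tails sat 1 base short of the usual end, where the T took the place of the final A. The hairpin goes on with T after that usual end, so tails there could not be counted. For miR-101a-3p (Mir101a, chromosome 4, 101346945 to 101347027, minus strand, in an exon of the lincRNA E130102H24Rik), 94.6% of the tails followed the usual end, and 74.8% of the reads that reached that end and no further templated base were tailed.

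Arms with nearly the same sequence had very different shares. miR-148b-3p (Mir148b, chromosome 15, 103285125 to 103285221, plus strand, intron of Copz1) was tailed in 46.9% ± 3.54 of MM3MG reads, 42.6% ± 3.32 of MM3MG-Her2 reads, 42.3% ± 1.59 of TUBO cell reads and 31.3% ± 3.63 of exosome reads (SD, n = 3). miR-148a-3p (Mir148a, chromosome 6, 51269812 to 51269910, minus strand), which ends in the same bases and continues with the same base in its hairpin, was tailed in 3.54% ± 0.115, 3.50% ± 0.138, 2.59% ± 0.106 and 1.82% ± 0.119 in the same groups. In each of these 4 groups the lowest miR-148b-3p library was above the highest miR-148a-3p library. miR-152-3p, of the same seed, lay near miR-148b-3p with 37.7% ± 2.12 in MM3MG and 36.1% ± 1.90 in TUBO cells.

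The miR-25 seed family spread as widely. miR-92b-3p was tailed in 17.6% ± 1.80 of reads in TUBO cells, miR-25-3p, of the miR-106b-25 cluster in Mcm7, in 7.61% ± 0.733, and miR-92a-3p, of the miR-17-92 cluster, in 0.697% ± 0.0598. For miR-92a-3p the usual end is followed by T in the hairpin, so tails there could not be counted, and its counted tails sat 1 base further on, where 14.5% of 9972 reads were tailed over all libraries. miR-26a-5p was tailed in 17.2% ± 0.732 of reads in TUBO cells and miR-26b-5p in 4.15% ± 0.546. miR-221-3p and miR-222-3p, from 1 primary transcript on the X chromosome, had 17.4% ± 1.10 and 0.501% ± 0.0970; the usual end of miR-222-3p is followed by T.

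Within let-7, which restrains growth and is the best-known substrate of TUT4 and TUT7 through its precursors, the highest counted shares among guides in TUBO cells were in arms whose flanking base was not T. let-7i-5p (next base G) had 6.53% ± 0.292 in TUBO cells and let-7e-5p (next base G) 8.39% ± 0.147. Yet miR-98-5p, which shares the seed and is also followed by G, had 1.90% in TUBO cells, less than let-7b-5p (below). let-7a-5p, let-7c-5p, let-7d-5p, let-7f-5p and let-7g-5p, whose usual end is followed by T in their hairpin or, for let-7f-5p, in 1 of its hairpins, had 0.00843 to 0.0654% over all libraries. let-7b-5p, followed by a single T, had 2.50% ± 0.404, and 94.4% of its tails sat 1 base further on, after that T. let-7g-5p is likewise followed by a single T, and at the end after that T 1.57% of 1466 reads were tailed, against 8.87% of 16815 for let-7b-5p. Uridines added at a usual end followed by T are not in these values.

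In the 44 arms with at least 50 reads in all 15 libraries, the order of arms was much the same in every group. Spearman's rho of the group means across these arms was 0.960 to 0.987 among MM3MG, MM3MG-Her2, TUBO cells and exosomes, and 0.905 to 0.942 for supernatant against each of them. These are correlations across arms of shared sequence, with no test. miR-143-3p led with a mean of 53.4% over the 5 group means, then miR-210-3p (46.8%), miR-320-3p (31.6%), miR-30a-3p (29.9%), miR-140-3p (29.4%), miR-24-3p (28.5%), miR-151-3p (25.6%), miR-27b-3p (18.4%), miR-26a-5p (17.0%), miR-103-3p/miR-107-3p (16.1%), miR-221-3p (13.0%) and miR-484 (12.3%). let-7f-5p, let-7a-5p, miR-22-3p, let-7c-5p, let-7g-5p and miR-191-5p were lowest, at 0.00550 to 0.191%. With edgeR's quasi-likelihood test on tailed reads, with all reads of the arm as offset and Benjamini-Hochberg adjustment, 32 of the 44 differed between the 5 groups (72.7%). The 12 that did not pass were let-7a-5p, let-7c-5p, let-7f-5p, let-7g-5p, miR-16-5p, miR-22-3p, miR-28a-3p, miR-29a-3p, miR-125b-5p, miR-183-5p, miR-191-5p and miR-532-5p; miR-28a-3p had a mean of 10.6% over the 5 groups, and the other 11 had means of at most 1.90%.

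The Neu-transduced line was set against its parent line to ask where their tails differed. Most arms that differed had lower tailed shares in MM3MG-Her2, among them miR-92a-3p and the miR-106b-25 arms, let-7b-5p, let-7i-5p and miR-26a-5p. The shares of miR-199a-5p and miR-181a-5p were higher. Of 88 arms tested, 39 passed (44.3%): 7 had a higher share in MM3MG-Her2 (7.95%) and 32 a lower one (36.4%). The libraries of the groups did not overlap in 54.5% of the arms tested, 9.09% higher and 45.5% lower. The median log2 ratio of the tailed shares over the arms tested was −0.38 (−0.35 with miR-183-5p, at 0 in MM3MG-Her2, set to its bound). The mean share over 99 arms with depth was 10.5, 10.4 and 10.4% in MM3MG-Her2 and 12, 12 and 12.1% in MM3MG (a difference of −1.59 points; exact two-sided permutation p = 0.1, the smallest that 3 against 3 allow, adjusted p = 0.1). The groups' libraries differed in other ways too: 49.6 to 54.4% of reads were assigned to miRNAs in MM3MG-Her2 against 71.4 to 78.3%, inserts of 19 or 20 bases made up 2.30 to 2.64% of arm reads against 4.16 to 4.92%, and C-tailed reads 2.41% against 0.867%. Without the inserts of 19 or 20 bases, 34 arms passed (4 higher and 30 lower), with a median log2 ratio of −0.38 and a mean share difference of −1.94 points. The part of the assigned share and of the C-tailed reads in the lower U shares was not tested.

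Arms of the proliferation-linked miR-17-92 and miR-106b-25 clusters were among the lower ones. The members of miR-106b-25 were all lower (3 of 3, against 36.4% of all arms tested), with a median log2 ratio of −1.15; of miR-17-92 and its paralogs, 3 of 5 tested were lower. For miR-92a-3p, shares were 0.443, 0.406 and 0.461% in MM3MG-Her2 and 1.04, 1.15 and 0.887% in MM3MG (log2 ratio −1.26 ± 0.12, adjusted p = 9.48e-17, edgeR), while the miRNA itself stood at 105900 against 29090 CPM. Its countable tails sit 1 base past the usual end, where 10.8% of pooled reads were tailed in MM3MG-Her2 and 16.1% in MM3MG, and that end held 2492 of 70790 and 1972 of 33934 reads of the arm. miR-93-5p was tailed in 1.95, 2.51 and 1.20% against 3.46, 5.18 and 3.89% (log2 ratio −1.15 ± 0.24, adjusted p = 3.73e-05). miR-106b-5p stood at 2.21, 2.67 and 1.96% against 6.52, 7.84 and 7.08% (log2 ratio −1.60 ± 0.50, adjusted p = 0.00660; adjusted p = 0.105 with DESeq2). miR-17-5p stood at 0.264, 0.530 and 0.840% against 2.86, 3.53 and 2.26%, on 5 and 11 tailed reads (log2 ratio −2.43 ± 0.74, adjusted p = 0.00532), and no longer passed without MM3MG-Her2 replicate 1 (adjusted p = 0.0615), without MM3MG replicate 2 (0.0575) or with DESeq2 (0.0651). In all 4 arms the libraries of the 2 groups did not overlap. The usual ends of miR-93-5p and miR-17-5p are followed by T. Over all libraries, 89.5% and 74.55% of their counted tails sat 1 base short of those ends. The shares of both therefore also depend on how many reads stop there.

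Other lower arms came from different families. miR-34c-5p, a p53-induced miRNA, was tailed in 0.984, 0.565 and 2.06% of reads in MM3MG-Her2 and 3.91, 4.82 and 5.08% in MM3MG (log2 ratio −2.08 ± 0.35, adjusted p = 6.15e-07), at nearly the same abundance (2068 and 2038 CPM). Its usual end is followed by T, and over all libraries 97.1% of its counted tails sat 1 base short of that end. The miR-34c-5p share therefore also depends on how many reads stop there. let-7b-5p had 0.675, 0.625 and 0.647% against 1.93, 1.40 and 1.40% (log2 ratio −1.22 ± 0.24, adjusted p = 1.05e-05). At the end that carries its tails, 7.69% of reads were tailed in MM3MG-Her2 and 9.02% in MM3MG, and that end held 403 of 5239 against 2305 of 14509 reads. let-7i-5p and let-7e-5p were lower as well, with log2 ratios of −1.06 and −0.38, so that 3 of 5 tested let-7 guides were lower and none higher, against 36.4% lower and 7.95% higher over all arms tested. miR-26a-5p went from a mean of 15.4% to 8.48% (log2 ratio −0.87) and miR-125b-2-3p from 17.6% to 6.72% (−1.36). miR-100-5p, at 2.16, 1.99 and 2.10% against 2.53, 6.25 and 5.67% on 8 and 27 tailed reads, passed at adjusted p = 0.0499 and lost the call when any library other than MM3MG replicate 1 was left out (adjusted p = 0.0877 to 0.24).

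The arms with higher shares in MM3MG-Her2 included stromal miRNAs. Of 6 tested arms of miR-143, miR-145, miR-199 and miR-214, 3 were higher and none lower (against 7.95% higher and 36.4% lower over all arms tested), with a median log2 ratio of 0.09. miR-199a-5p rose to 23.6, 26.6 and 31.6% from 14.4, 16.6 and 18% (log2 ratio 0.71 ± 0.13, adjusted p = 3.43e-06), while its abundance was 1007 against 2874 CPM. The other 2 were small: miR-143-3p stood at 59.9, 58.5 and 57.6% against 54.6, 55.3 and 56.6% (log2 ratio 0.08), which did not pass within its usual end alone (adjusted p = 0.395), with limma (0.213) or with inserts of 21 to 26 bases (0.272), and the joint arm miR-199a-3p/miR-199b-3p at 8.72, 8.89 and 8.65% against 8.18, 8.03 and 8.24% (log2 ratio 0.10), which did not pass without MM3MG-Her2 replicate 1, MM3MG-Her2 replicate 2 or MM3MG replicate 3 (adjusted p = 0.0635, 0.0749 and 0.0634), with limma (0.376), with DESeq2 (0.114) or with inserts of 21 to 26 bases (0.147). miR-181a-5p, a regulator of lymphocyte signalling also found in epithelium, was at 3.90, 4.01 and 3.76% against 2.20, 2.60 and 2.29% (log2 ratio 0.71 ± 0.08, adjusted p = 7.36e-12). Its usual end is followed by T, and 82.6% of its counted tails over all libraries sat 2 bases further on. The miR-181a-5p share therefore also depends on how many reads reach that end. miR-23a-3p, at 19, 14.9 and 21.3% against 13.3, 11.4 and 8.87%, passed at adjusted p = 0.0499 and lost the call without any 1 library but MM3MG replicate 1 (adjusted p = 0.0622 to 0.18).

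Comparison of TUBO cells with MM3MG sets the tumour line against the same normal line, and so shares the MM3MG libraries with the comparison above. Tailed shares were lower in TUBO cells for 3p strands such as miR-24-3p, miR-130a-3p and let-7c-2-3p/let-7a-1-3p, and higher for the guides miR-181a-5p and let-7b-5p. Most counted tails of both guides sat past the usual end, so their shares also depend on how many reads reach that far. At the end with most of its tails, miR-181a-5p was tailed less often in TUBO cells (below). Of 88 arms tested, 26 passed (29.5%), 6 with a higher and 20 with a lower share in TUBO cells (6.82% and 22.7%). The libraries of the groups did not overlap in 36.4% of the arms tested, 9.09% higher and 27.3% lower. Leaving out TUBO cells replicate 1 took the count of calls to 17. The median log2 ratio was −0.07. By strand, 17 of 43 tested 3p arms were lower and 1 higher (median −0.21), and 3 of 44 tested 5p arms were lower and 5 higher (median 0.16). The mean share over 96 arms was 10.8, 10.4 and 10.6% in TUBO cells and 11.8, 11.8 and 12.2% in MM3MG (exact permutation p = 0.1, adjusted p = 0.1), whereas the median over the same arms differed by 0.0272 points the other way.

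Lower shares in TUBO cells were clearest in 3p arms. miR-24-3p (1 of its 2 hairpins is Mir24-1, chromosome 13, 63301208 to 63301275, plus strand, within an exon of 2010111I01Rik), a cell cycle and differentiation miRNA, was tailed in 25.7, 28.9 and 27.2% of reads in TUBO cells and 38.4, 40.4 and 37.9% in MM3MG (log2 ratio −0.52 ± 0.06, adjusted p = 2.99e-07). miR-130a-3p stood at 9.52, 7.41 and 8.28% against 21.4, 16.8 and 18.8% (log2 ratio −1.12 ± 0.19, adjusted p = 9.31e-05). The joint passenger arm let-7c-2-3p/let-7a-1-3p stood at 38.9, 35.5 and 36.5% against 59.7, 56.6 and 55.3% (log2 ratio −0.61 ± 0.11, adjusted p = 0.000109). In each of these the TUBO libraries all lay below the MM3MG libraries. The usual end of let-7c-2-3p/let-7a-1-3p is followed by T, and over all libraries 99.4% of its counted tails sat 1 base short. The share of this joint arm therefore also depends on how many reads stop there. miR-222-3p had 0.611, 0.427 and 0.467% against 1.46, 1.12 and 1.59% (log2 ratio −1.42 ± 0.31, adjusted p = 0.000866). miR-181a-1-3p had 3.59% against 11.9% and miR-125b-2-3p 5.78% against 17.6% (log2 ratios −1.61 and −1.59), though neither passed when only the usual end was counted (adjusted p = 0.200 and 0.138). miR-423-3p (−0.85) did not pass without MM3MG replicate 2 (adjusted p = 0.0649).

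Higher shares in TUBO cells were mostly in 5p guides. miR-181a-5p was tailed in 4.78, 4.79 and 4.58% of reads against 2.20, 2.60 and 2.29% (log2 ratio 0.98 ± 0.06, adjusted p = 7.43e-12). Of its reads at the end 2 bases past the usual one, 13.5% were tailed in TUBO cells and 17.5% in MM3MG. let-7b-5p stood at 2.83, 2.63 and 2.05% against 1.93, 1.40 and 1.40% (log2 ratio 0.72 ± 0.13, adjusted p = 0.000139; adjusted p = 0.0755 with limma), the opposite of its direction in MM3MG-Her2. Over all libraries, 94.4% of the counted let-7b-5p tails sat 1 base past the usual end. The let-7b-5p share therefore also depends on how many reads reach that end. For miR-221-3p, which restrains the cyclin-dependent kinase inhibitor p27, shares were 18.6, 16.9 and 16.6% against 13.3, 13.1 and 13.4% (log2 ratio 0.39 ± 0.08, adjusted p = 0.000375), but at its usual end alone the log2 ratio was 0.08 (adjusted p = 0.671). miR-181b-5p had 4.75% against 3.52% (log2 ratio 0.42) and did not pass without TUBO cells replicate 1 (adjusted p = 0.0522) or MM3MG replicate 3 (0.0889). miR-143-3p was tailed a little less often in TUBO cells, in 50.3, 49.6 and 49.9% of reads (log2 ratio −0.15, adjusted p = 1.20e-06).

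Exosomes were compared with the TUBO cells that shed them. Tailed shares were higher in exosomes for let-7i-5p, miR-204-5p, miR-744-5p and miR-151-3p, and lower for miR-210-3p, miR-200c-3p, miR-221-3p and 3 of the 4 miR-181 guides tested. Of 89 arms tested, 29 passed (32.6%), 18 with a higher and 11 with a lower share in exosomes (20.2% and 12.4%). The libraries of the groups did not overlap in 43.8% of the arms tested, 28.1% higher and 15.7% lower. The median log2 ratio was 0.19. The mean share over 96 arms was 10.8, 10.7 and 10.6% in exosomes and 10.5, 10.2 and 10.2% in cells (exact permutation p = 0.1, adjusted p = 0.1). This difference of 0.412 points became −0.0710 when only arms with 200 or more reads per library were kept. The sum of blood and serum markers, mainly miR-3107-5p/miR-486-5p, was higher in exosomes (above). How much of each arm came from serum in the medium was not tested.

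Guides that rose in exosomes included let-7i-5p, with 11, 14 and 10.8% of reads tailed against 6.58, 6.22 and 6.79% in cells (log2 ratio 0.87 ± 0.10, adjusted p = 1.59e-06). At its usual end, 17% of pooled reads were tailed in exosomes and 8.53% in cells. miR-204-5p (Mir204, chromosome 19, 22750605 to 22750672, plus strand, intron of Trpm3), a miRNA of epithelia and neural tissue, had 13.6, 15.7 and 11.3% against 7.43, 7.37 and 7.76% (log2 ratio 0.84 ± 0.11, adjusted p = 6.04e-06). miR-744-5p had 12.7, 13.9 and 16.4% against 7.33, 7.81 and 7.66% (log2 ratio 0.94 ± 0.19, adjusted p = 0.000598). Among 3p strands, miR-151-3p had 33.1, 31.7 and 29.6% against 21.7, 19.8 and 20.8% (log2 ratio 0.59 ± 0.08, adjusted p = 7.92e-06). The libraries of exosomes and cells did not overlap for any of these 4 arms. miR-30e-3p (41.1% against 27.4%) and miR-181a-1-3p (9.21% against 3.59%) were also higher, but neither passed at its usual end alone (adjusted p = 0.630 and 0.251). miR-99b-3p had 15.6% against 9.25% (log2 ratio 0.78; adjusted p = 0.0555 with DESeq2). miR-222-3p, on 10 tailed reads in exosomes, had 1.60% against 0.501% (adjusted p = 0.0260) and lost the call without exosome replicate 1, 2 or 3 (adjusted p = 0.0564, 0.0976 and 0.0566).

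Lower shares in exosomes were led by the miR-181 guides, 3 of 4 tested, against 12.4% of all arms. miR-181a-5p had 1.44, 1.87 and 2.66% against 4.78, 4.79 and 4.58% (log2 ratio −1.27 ± 0.18, adjusted p = 0.000470) and miR-181b-5p 2.19, 2.61 and 2.90% against 5.24, 4.51 and 4.49% (log2 ratio −0.90 ± 0.10, adjusted p = 1.59e-06). miR-181a-5p carries 82.6% of its tails on an end 2 bases past the usual one, and at that end 14.9% of pooled reads were tailed in exosomes and 13.5% in cells. That end held 4272 of 47326 reads of the arm in exosomes and 17527 of 60212 in cells: the reads that long were fewer, and those present were tailed about as often. miR-181d-5p (log2 ratio −0.69) was at 0.02 at its usual end alone, with the sign reversed. miR-101a-3p had 19.2, 21 and 14.9% against 39.5, 40.2 and 41.5% (log2 ratio −1.13 ± 0.10, adjusted p = 2.04e-07), and at its usual end alone the log2 ratio was −0.06 (adjusted p = 0.621), where 62.2% of 2223 reads in exosomes and 65.5% of 2169 in cells were tailed; the arm had 9148 and 3737 reads in all.

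The share was also lower in exosomes for 4 other 3p arms. miR-210-3p had 31.4, 29 and 37.9% in exosomes against 52, 52.2 and 51.9% in cells (log2 ratio −0.68 ± 0.11, adjusted p = 5.29e-05), 76.1% against 89.2% at the end 1 base short, while its abundance was 12460 against 4861 CPM. miR-200c-3p, an epithelial miRNA that represses Zeb1 and Zeb2, had 7.25, 7.63 and 7.97% against 13.5, 14.4 and 14.1% (log2 ratio −0.87 ± 0.08, adjusted p = 1.17e-07). Its family did not move together: miR-200b-3p was higher in exosomes (9.36% against 7%, log2 ratio 0.43, adjusted p = 0.000439), and the other 3 tested members did not pass. miR-221-3p had 9.83, 7.21 and 11.7% against 18.6, 16.9 and 16.6% (log2 ratio −0.83 ± 0.14, adjusted p = 0.000129), and miR-148a-3p 1.78, 1.96 and 1.73% against 2.71, 2.58 and 2.49% (log2 ratio −0.52 ± 0.08, adjusted p = 4.71e-05).

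The supernatant left after exosome isolation was set against TUBO cells and against exosomes, and the comparisons share libraries. Tails were rarer in supernatant on miR-148a-3p, the miR-200 family and miR-24-3p, while miR-140-3p and miR-204-5p carried more than in cells. Of 52 arms tested against cells, 28 passed (53.8%), 8 with a higher and 20 with a lower share in supernatant (15.4% and 38.5%). Libraries did not overlap in 61.5% of these arms, with 15.4% higher and 46.2% lower. Of 49 arms tested in exosomes against supernatant, 22 passed (44.9%), 19 with a higher and 3 with a lower share in exosomes (38.8% and 6.12%). Here 53.1% of arms had no overlap of libraries, 44.9% with exosomes higher and 8.16% with exosomes lower. The median log2 ratios were −0.47 (−0.36 with 2 arms at 0 set to their bound) for supernatant against cells and 0.47 for exosomes against supernatant. The mean share over 58 arms was 9.35, 8.69 and 8.80% in supernatant and 9.54, 9.50 and 9.65% in cells, and over 55 arms 10.2, 10.8 and 10.1% in exosomes and 9.07, 8.52 and 8.50% in supernatant (exact permutation p = 0.1 and adjusted p = 0.1 for both). The difference from cells of −0.621 points turned to 0.0766 without inserts of 19 or 20 bases and to 0.486 at the usual ends alone. Inserts of 19 or 20 bases made up 7.55 to 10.4% of arm reads in supernatant against 3.58 to 3.71% in cells and 4.59 to 4.79% in exosomes. Without them, 27 of 47 arms tested passed against cells, 26 of them among the 28.

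The epithelial miR-200 family had lower shares in supernatant in all 4 members tested, against 38.5% of all arms for lower than cells and 38.8% for lower than exosomes. For miR-200c-3p (Mir200c, chromosome 6, 124718322 to 124718390, minus strand, in an intron of the antisense RNA Gm15884), 0.829, 1.24 and 0.380% of supernatant reads were tailed, against 13.5, 14.4 and 14.1% in cells and 7.25, 7.63 and 7.97% in exosomes (log2 ratio −4.04 ± 0.24, adjusted p = 5.52e-10 against cells; 8 of 949 supernatant reads). At its usual end the pooled values were 0.399% in supernatant and 15.1% in cells, and 1 base further 3.90% and 30.1%. miR-200b-3p stood at 1.60, 1.31 and 0.725% in supernatant, 6.63, 6.86 and 7.49% in cells and 9.82, 8.78 and 9.48% in exosomes (log2 ratio −2.48 ± 0.31, adjusted p = 6.02e-06 against cells). miR-200a-3p had 0 tailed reads among 526 in supernatant, which allows a share of up to 0.57%, against 1.69, 1.48 and 1.51% in cells, at least 2.73-fold higher, and 1.17, 1.28 and 0.813% in exosomes, at least 2.02-fold higher (floor of 3 reads over the group). Its call against exosomes was lost without exosome replicate 1, exosome replicate 2 or supernatant replicate 2 (adjusted p = 0.0622, 0.0501 and 0.0845). miR-429-3p, on 4 tailed reads in supernatant, had log2 ratios of −1.72 against cells and 1.91 for exosomes against supernatant, and the latter did not pass without exosome replicate 2 (adjusted p = 0.0557) or supernatant replicate 2 (0.112). With miR-200a-3p at its bound, the family's median log2 ratio was −2.10 against cells and 2.40 for exosomes against supernatant.

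A wide gap was found in miR-148a-3p, an abundant miRNA of liver, B cells and milk. It was tailed in 0, 0.0934 and 0.0843% of reads in supernatant, against 2.71, 2.58 and 2.49% in cells and 1.78, 1.96 and 1.73% in exosomes. Only 3 of its 4639 supernatant reads were tailed, a ratio of 40.0 for cells over supernatant with a 95% counting interval of 13.6 to 194, and of 27.9 for exosomes over supernatant (9.49 to 136). Of reads at its usual end, 0.0521% were tailed in supernatant, 3.41% in cells and 2.24% in exosomes. Its abundance was similar, at 22100, 25100 and 26490 CPM.

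Lower shares in supernatant were also found in other 3p arms. miR-24-3p stood at 10.6, 10.4 and 9%, against 25.7, 28.9 and 27.2% in cells and 34.5, 33.9 and 29.9% in exosomes (log2 ratio 1.71 ± 0.18, adjusted p = 3.06e-06 for exosomes against supernatant). miR-27b-3p, from the same cluster, stood at 7.32, 7.43 and 3.58%, against 23.1, 21.8 and 23.3% in cells (log2 ratio −1.89 ± 0.21, adjusted p = 2.07e-06); without inserts of 19 or 20 bases the log2 ratio was −0.59. miR-92a-3p stood at 0.0784, 0.0844 and 0.0899% against 0.753, 0.704 and 0.634% in cells (log2 ratio −3.04 ± 0.15, adjusted p = 7.99e-11); 1 base past the usual end, however, 14.2% of 197 supernatant reads and 17.2% of 3488 cell reads were tailed, of 52249 and 91674 reads of the arm. Among 5p guides, miR-9-5p, a neural miRNA that also lowers E-cadherin, stood at 1.69, 2.75 and 1.71% against 7.48, 7.17 and 6.97% in cells (log2 ratio −1.76 ± 0.27, adjusted p = 5.28e-05). miR-146b-5p, which shares its seed with miR-146a-5p and targets Traf6, stood at 0.122, 0.132 and 0.351% against 1.07, 1.07 and 1.12% (log2 ratio −2.29 ± 0.38, adjusted p = 0.000101). miR-99b-5p stood at 0.769, 0.962 and 0% against 3.36, 3.37 and 3.99% (log2 ratio −2.79 ± 0.51, adjusted p = 0.00286; adjusted p = 0.0580 with limma). For none of these 6 arms did supernatant and cell libraries overlap. Of the miR-30 guides, 2 of 3 tested were lower in supernatant than in cells (against 38.5% of all arms; median log2 ratio −0.91), and 3 of 3 were higher in exosomes than in supernatant (against 38.8%; median 1.09).

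Other arms had higher shares in supernatant. miR-204-5p stood at 21.1, 18.7 and 12.2% in supernatant against 7.43, 7.37 and 7.76% in cells (log2 ratio 1.20 ± 0.18, adjusted p = 5.47e-05), and at its usual end 21.3% against 9.03%. miR-140-3p, best known from cartilage (Mir140, chromosome 8, 107551244 to 107551313, plus strand, annotated within an exon of Wwp2), stood at 42.6, 46.6 and 59.8%, against 23.9, 25.4 and 23.6% in cells and 24.5, 27.9 and 25.8% in exosomes (log2 ratio 1.03 ± 0.15, adjusted p = 4.34e-05 against cells). miR-125b-1-3p stood at 47.5, 45.7 and 46.1% against 23.5, 26.1 and 35.3% (log2 ratio 0.69 ± 0.17, adjusted p = 0.00286). Over all libraries, 92.55% of its counted tails sat 2 bases short of the usual end, where 2.97% of reads were tailed. The miR-125b-1-3p share therefore also depends on how many reads stop at the shorter end. miR-151-3p stood at 32.5, 28.3 and 33.3% against 21.7, 19.8 and 20.8% (log2 ratio 0.60 ± 0.14, adjusted p = 0.00243). In these 4 arms every supernatant library lay above every cell library. miR-106b-3p (14.2% against 7.44%) was higher too, but not at its usual end alone (adjusted p = 0.759).

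Only 3 arms had lower shares in exosomes than in supernatant. They were miR-140-3p (log2 ratio −0.93 ± 0.18, adjusted p = 0.000702), miR-210-3p and miR-181a-5p. miR-210-3p stood at 31.4, 29 and 37.9% in exosomes and 52.2, 47 and 48.1% in supernatant (log2 ratio −0.59, adjusted p = 0.0141) and did not pass without exosome replicate 1 (adjusted p = 0.0520) or 2 (0.0932). miR-181a-5p (log2 ratio −0.84) did not pass without exosome replicate 1, supernatant replicate 1 or supernatant replicate 3 (adjusted p = 0.0708, 0.0764 and 0.0699). Its share also depends on how many reads reach the end that carries most of its tails (above). Across the 5 pairwise comparisons 117 arms were tested at least once. The other 42 lacked the depth or the 10 tailed reads that a test needed, and 2 of the 159 arms had no tailed read at all.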

How the data were processed

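Small RNA was sequenced in 15 libraries, 3 in each of 5 groups taken from the sample titles. The files have no header; by their values, the deposited files hold raw read counts of distinct adapter-free inserts; the sources used here do not give the authors' trimming tool, filters or build. Inserts of 19 to 26 bases were matched to 1174 named mouse hairpins (GENCODE M21, GRCm38) by an exact match of the first 18 bases with up to 2 differences after them (Python 3.11.15, pandas 2.3.3). Arms took the names of RefSeq mature miRNAs where 1 overlapped, and arms that shared 50% of their reads were joined; inserts that fitted several arms were left out (at most 0.0331% of assigned reads). No genome was used, so bases past a hairpin's end were not checked, and 7 tailed reads ended there.

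Arms with at least 50 reads in every library compared and 10 tailed reads were tested with edgeR 4.0.16 (R 4.3.3) by its quasi-likelihood test on tailed read counts, with the log of the arm's reads as offset and Benjamini-Hochberg adjustment at 0.05. A log2 ratio is that of the tailed shares of the first group named over the second, ± its standard error. The mean share over arms was tested by an exact permutation of libraries. Alternatives were DESeq2 1.42.0, limma 3.58.1 on log2 odds (0.5 added), 20 or 200 reads per arm, other denominators, tails and lengths, a replicate block and each library left out; the restriction to the most frequent templated end and the removal of inserts at the last hairpin base were added after seeing the data. On simulated counts with 2-fold rises, edgeR recovered 10 of 19 changed arms for MM3MG-Her2 against MM3MG, with 1 false call. In the other comparisons it recovered 8 of 20 to 14 of 20, with at most 1 false call. The simulated spread between libraries was set in advance and not estimated from these data, and falls were not simulated. These counts therefore do not give the power or the false calls of the tests here. Arms named are the 8 largest rises and falls per comparison among called arms whose libraries do not overlap and with 1% or more tailed reads in the higher group, the 12 highest and 6 lowest over the groups, and members of family lists. The members and lists were chosen with earlier results of these data known. PCR reads carry no molecular identifiers, so intervals and limits cover counting error only.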

Additional observations from a re-analysis of the deposited data

How the results depend on the processing

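Across 65 results for single arms and 1045 alternative values, 968 kept direction and call, 76 kept direction but lost the call, and miR-181d-5p in exosomes against cells turned to 0.016 at the most frequent templated end. For MM3MG-Her2 against MM3MG, 39 called arms became 24 with DESeq2, 23 with limma and 20 at the most frequent end (51 arms tested); for TUBO cells against MM3MG, 26 became 12 with limma and 17 at that end (48 tested); for exosomes against supernatant, 22 became 10 with at least 200 reads per arm (23 tested) and 11 at that end (22 tested); for supernatant against cells, 28 became 15 at that end (22 tested); over the 5 groups, 32 became 18 with 200 reads (21 tested) and 13 at that end (16 tested). DESeq2 and limma were run on the same 88 arms as the main test, whereas the other settings listed here tested fewer arms. The part of the smaller number of arms in these counts was not tested. Of the called arms at that end, 5.88% were higher in TUBO cells against 23.1% otherwise, 72.7% against 86.4% in exosomes over supernatant, and 40% against 28.6% in supernatant over cells. For exosomes against cells, 62.1% of the 29 called arms were higher, and 51.9% of the 27 called without TUBO cells replicate 3. With each library left out in turn, the counts ran from 27 to 37 for MM3MG-Her2 against MM3MG, 17 (without TUBO cells replicate 1) to 27 for TUBO cells against MM3MG, 27 to 34 for exosomes against cells, 16 to 23 for exosomes against supernatant and 22 to 28 for supernatant against cells.

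The mean share difference for MM3MG-Her2 against MM3MG (−1.59 points) was −1.88 with an exact denominator, −1.41 with 1 T, −1.94 with 21 to 26 bases, −1.97 at the most frequent end, −4.43 pooled over reads and −1.46 as a median. For TUBO cells against MM3MG (−1.31) it was −0.887 with 200 reads, −1.98 with the exact denominator, −2.38 at that end, −4.00 pooled, and reversed to 0.0272 as a median. For exosomes against cells (0.412) it was 0.826 with 20 reads, reversed to −0.0710 with 200 reads, and was 0.779 with 21 to 26 bases, 0.950 at that end and 1.05 pooled. For exosomes against supernatant (1.67) it was 1.00 at that end and 3.69 as a median. For supernatant against cells (−0.621) it was −1.09 with 20 reads, −1.02 with 200 reads, −2.32 as a median, and reversed to 0.0766 with 21 to 26 bases and 0.486 at that end. Leaving out each library in turn gave −1.63 to −1.42, −1.43 to −1.14, 0.319 to 0.577, 1.32 to 2.07 and −0.987 to −0.579, the last at −0.987 without supernatant replicate 1. The causes were not tested.

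Whether replicate numbers pair the samples was not settled by the data. Correlations of same-numbered deviations ran from −0.211 to 0.300, and in no comparison were all 3 above 0.1. For exosomes against cells all 3 (0.209, 0.195 and 0.0336) lay above the mean for unlike numbers (−0.0702). For supernatant against cells all 3 (−0.116, −0.0379 and −0.211) lay below it (0.062). In the other comparisons they lay on both sides. With the replicate block, 31, 18, 31, 24 and 21 arms were called in the same 5 comparisons in that order, and 30 over the 5 groups.

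A uridine after an end that the hairpin continues with T is not counted, mixed tails are not counted, and the limit of 26 bases drops tails of the longest ends. Bovine miRNA from the serum cannot be told from mouse miRNA where the sequences are the same. Hairpins extended by genome bases were not run, since no genome was used. In the 2 comparisons with supernatant, 104 and 101 of 159 arms lacked 50 reads in every library.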
